A study of Mus musculus with 6 samples.

Results

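The 9 genes described here, Trem2, Gpnmb, Spp1, Cx3cr1, Ccr2, Igf1, Fn1, Cd9 and Cd81, were taken by name from the 46078 gene rows as commonly used markers of interstitial, lipid-associated or monocyte-derived macrophages, and all 9 were among the 15147 genes tested. Their transcripts were counted by sequencing polyadenylated RNA of alveolar macrophages, which live on the airspace side of the lung, sorted from untreated mice. Car4fl/fl-CD11cCre mice (n = 3, called Cre libraries) carried loxP-flanked alleles of Car4, the gene of the membrane-bound carbonic anhydrase 4, and a Cre recombinase under the control of CD11c, an integrin chain made by alveolar macrophages and dendritic cells. Car4fl/fl mice (n = 3, called controls) carried the same floxed alleles without the Cre. Mice with the Cre and normal Car4 alleles were not a group, so effects of the transgene and of the deletion cannot be told apart. The labels state neither age nor strain. The question is whether these markers of interstitial, lipid-associated or monocyte-derived macrophages differ in sorted alveolar macrophages once Car4 is deleted.

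Alveolar macrophages settle in the lung around birth and renew themselves locally, whereas interstitial macrophages lie in the lung tissue and are replaced in part from blood monocytes. After injury, recruited monocytes use the chemokine receptor CCR2 to leave the marrow and can become macrophages that express CX3CR1, the lipid receptor TREM2, the glycoprotein GPNMB, osteopontin (Spp1), fibronectin (Fn1) and insulin-like growth factor 1 (Igf1). The tetraspanins CD9 and CD81 organise membrane proteins into microdomains, and CD9 is often used with TREM2 to mark lipid-associated macrophages.

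The libraries held 53824475 to 65443314 counts in genes. Car4 had 40.2, 46.9 and 36.3 CPM in the Cre libraries, against 499, 385 and 270.4 CPM in the controls, where CPM are counts scaled to library size with TMM factors (trimmed mean of M-values). Values of genotypes are means ± SD over 3 libraries each, and a positive log2 fold change means higher in Cre libraries. The Cre libraries were not alike: on the first principal component, with 47.0% of the variance, Cre libraries 1, 2 and 3 lay at 0.44, 39.8 and 39.4, against -29.7, -27.3 and -22.5 for control libraries 1, 2 and 3. Each result is therefore given by library, and where 1 library moves it, also without that library. In bulk RNA, fewer cells of a type and less RNA per cell cannot be told apart.

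Along with the lower Car4 transcript, 5 of the 9 markers (Trem2, Gpnmb, Spp1, Cx3cr1 and Igf1) were higher in Cre libraries 2 and 3 than in any control, against 15.5% of tested genes, by a margin under 0.01 CPM for Cx3cr1 in Cre library 3. The pattern was picked after the values of the libraries were seen, so this share is a description and no independent support. The 9 markers were themselves chosen with earlier results of these data known, which limits each share below in the same way. For all 5 markers, Cre library 1 lay nearer to the controls. Cd9 and Fn1 lay below every control in each Cre library, and Ccr2 lay within the range of the controls. None of the 9 markers passed the edgeR quasi-likelihood test over all genes (adjusted p 0.159 to 0.942, threshold 0.05), where 0.0132% of tested genes did. At an unadjusted edgeR p under 0.05, 4 of 9 were higher and 0 lower, against 6.54% and 6.28% of tested genes. Without Cre library 2, control library 2 or control library 3 the count of markers higher at that p was 2 each time, against 5.05%, 5.72% and 6.55% of tested genes. DESeq2 called 2 of 9 (Gpnmb and Igf1), against 3.88% of the genes it tested, edgeR without a filter on low counts called the same 2, against 1.9%, and limma-voom called 0, against 0.0132%. Between genotypes the 3 values did not overlap for 2 markers that were higher (Gpnmb and Igf1) and 2 that were lower (Fn1 and Cd9), against 8.63% and 9.22% of tested genes. The fitted change was above 0 for 6 of 9, against 49.4% of tested genes. The median log2 fold change of the 9 was 0.51, against -0.0019 over all tested genes, and it was 0.21 without Cre library 2 and 0.20 without control library 3. Without Cre library 1, edgeR called 3 of 9 (Trem2, Gpnmb and Igf1), against 1.83% of tested genes.

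**Figure D1:**
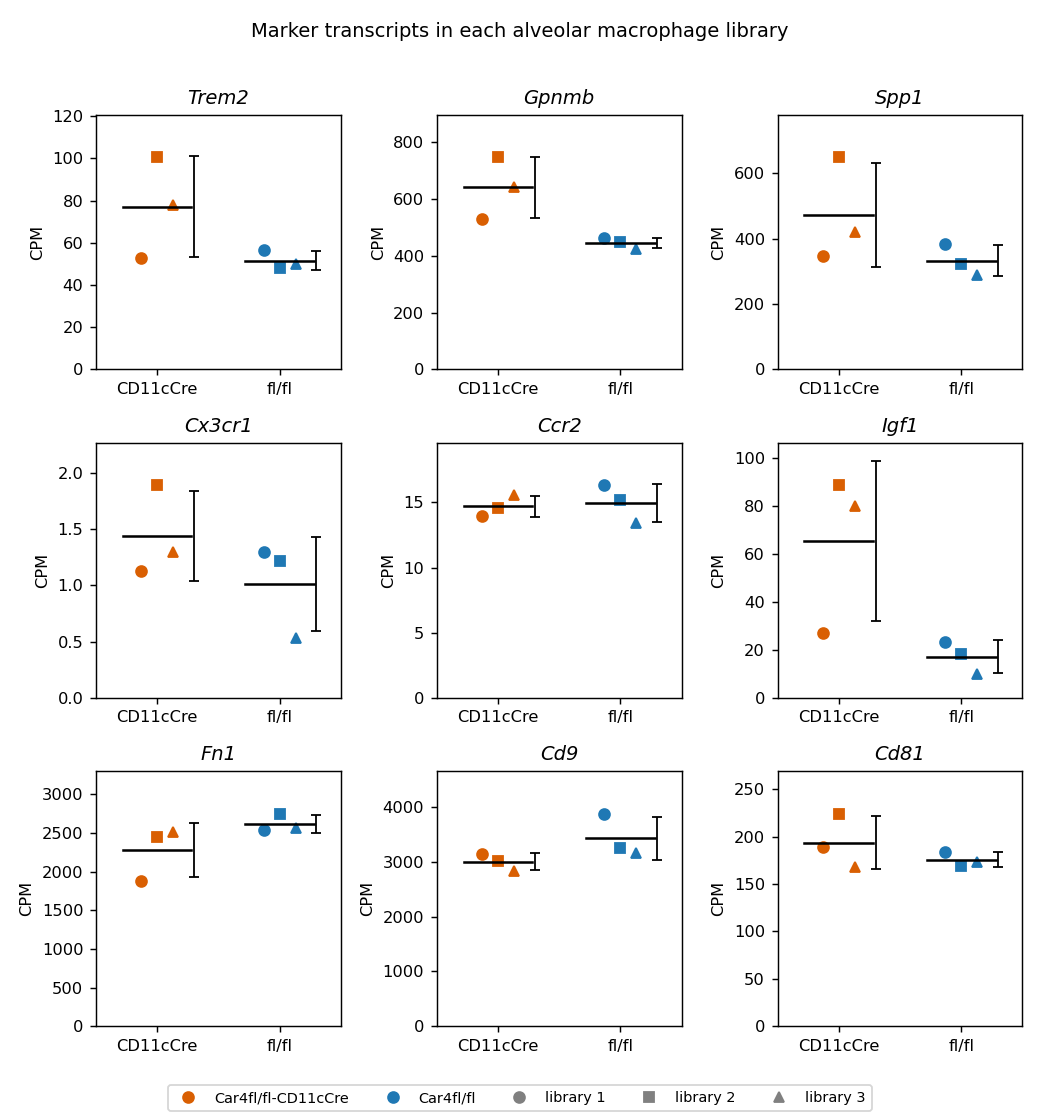
Level of each marker in CPM (TMM-scaled, axes from 0), with 1 point per library, a line at the mean and a bar of 1 SD beside it, Car4fl/fl-CD11cCre left and Car4fl/fl right. The 3 points of each genotype separate for Gpnmb, Igf1, Fn1 and Cd9 and overlap for the other 5 markers.

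Set against transcript length, the markers spanned a wide range in these sorted cells. The scale for this comparison is CPM per kilobase of merged exons, which understates genes that use mainly short isoforms. Cd9 was highest, at 1467 ± 75.8 in Cre libraries and 1677 ± 192 in controls, and ranked 16 of 15094 tested genes of known length. Spp1 was at 287 ± 95.9 in Cre libraries and 202 ± 28.8 in controls, and Fn1 at 195 ± 29.6 in Cre libraries and 224 ± 9.81 in controls. In the Cre libraries Spp1 lay above Fn1 in each library (210.4, 394 and 255 against 161, 209 and 215 for libraries 1, 2 and 3), and in the controls it did so in library 1 only (233, 196 and 176 against 217, 235 and 219). Gpnmb followed at 98.4 ± 16.7 in Cre libraries and 68.3 ± 2.82 in controls, and Cd81 at 67.3 ± 9.77 in Cre libraries and 60.9 ± 2.77 in controls. Trem2 was at 15.6 ± 4.84 in Cre libraries and 10.4 ± 0.89 in controls. Below these, Igf1 was at 6.59 ± 3.37 in Cre libraries and 1.73 ± 0.682 in controls, and Ccr2 at 2.18 ± 0.121 in Cre libraries and 2.21 ± 0.214 in controls. Igf1 thus lay above Ccr2 in each Cre library (2.74, 8.95 and 8.1 against 2.07, 2.15 and 2.31) and below it in each control (2.37, 1.83 and 1.01 against 2.41, 2.25 and 1.99). Cx3cr1 was lowest, at 0.32 ± 0.0883 in Cre libraries and 0.225 ± 0.0935 in controls. The pairs whose means lay within the summed SDs were Spp1 and Fn1 in both genotypes and Igf1 and Ccr2 in controls. Cd9, Fn1 and Spp1, at ranks 16, 177 and 139, were thus abundant in the sorted alveolar macrophages of both genotypes, whereas Ccr2 and Cx3cr1, at ranks 8697 and 12457, were low.

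**Figure D2:**
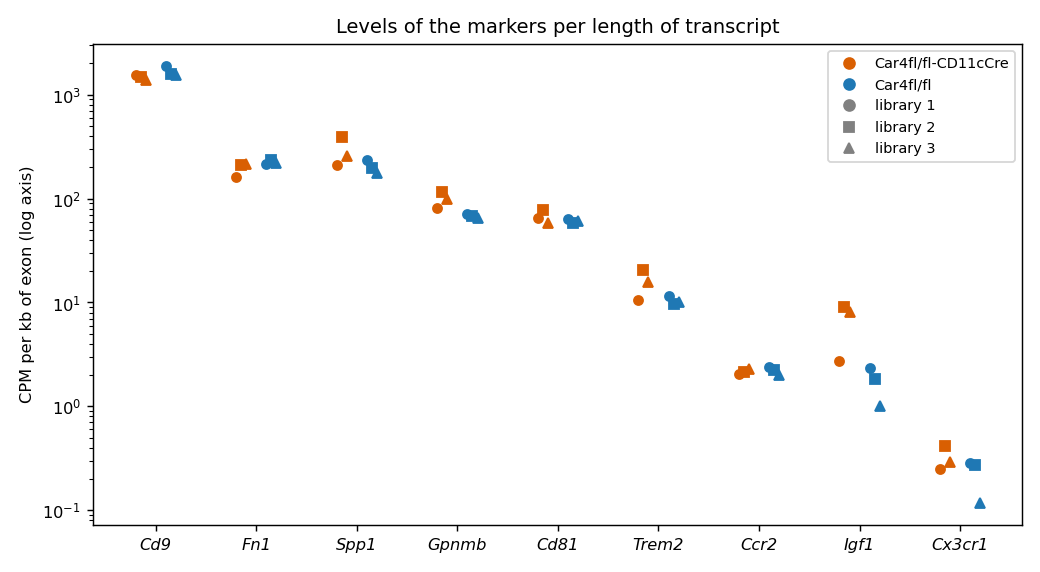
Level of each marker in CPM per kilobase of merged exons on a log axis, ordered by the Car4fl/fl mean, with 1 point per library and Car4fl/fl-CD11cCre left of Car4fl/fl. Cd9 stands at the top and Cx3cr1 at the bottom, and Igf1 is the marker whose genotypes lie farthest apart.

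Trem2 encodes a surface receptor for lipids and lipoproteins that signals through the adaptor DAP12 (Tyrobp). It lies at chr17:48346401-48354147 on the plus strand, in 5 merged exon blocks (ENSMUSG00000023992) (GRCm38, GENCODE M21). Trem2 had 52.8, 101 and 77.8 CPM in Cre libraries 1, 2 and 3, against 56.5, 48.1 and 50 CPM in control libraries 1, 2 and 3. Cre libraries 2 and 3 exceeded every control, while Cre library 1 lay inside the range of the controls. The means were 77.1 ± 24 CPM in Cre libraries and 51.6 ± 4.4 CPM in controls, a log2 fold change of 0.58 ± 0.20 (SE) with a 95% interval of 0.11 to 1.05 and an adjusted p of 0.294 by edgeR. Without Cre library 1 it was 0.79 with an adjusted p of 0.0248 (edgeR), against 0.0248 to 0.56 over the alternatives, and without Cre library 2 it was 0.34.

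Beside this list and all later lists, 49.4% of all tested genes had a fitted change above 0. At an unadjusted edgeR p under 0.05, 6.54% were higher and 6.28% lower, and DESeq2 called 3.88% of the genes it tested. The lists were chosen with earlier results of these data known, so their counts beside these shares are a description and no independent support. Genes of TREM2 signalling lay on both sides of their control levels. Of the list 8 of 16 tested genes had a fitted change above 0, 2 were higher and 1 lower with an unadjusted edgeR p under 0.05, 0 passed over all genes in edgeR, DESeq2 called 1 higher and 0 lower, and the median log2 fold change was 0.011. Tyrobp, chosen after its values were seen, had 636, 703 and 608 CPM in the Cre libraries, against 716, 623 and 675 CPM in controls. The kinase gene Syk had 715, 727 and 699 CPM in the Cre libraries, against 699.8, 712 and 696 CPM in controls. Pik3ap1, which couples receptors to phosphoinositide 3-kinase, had 961, 765 and 839 CPM in the Cre libraries, against 914, 951 and 834 CPM in controls. The genotypes overlapped for all 3. The 2 genes of smallest p were low in level. Treml2, a TREM family receptor, had 1.2, 5.47 and 3.84 CPM in the Cre libraries, against 0.913, 0.732 and 1.14 CPM in controls. The membrane protein gene Ms4a4a had 0.22, 0.325 and 0.817 CPM in the Cre libraries, against 0.0996, 0.0831 and 0.106 CPM in controls. For both, every Cre library lay above every control, with adjusted p of 0.185 and 0.185 (edgeR). Ms4a4a was under the filter's minimum count of 10 in every control and was tested only through the Cre libraries. Its separation and its place among the 2 higher genes are therefore no support.

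Gpnmb encodes a type I transmembrane glycoprotein that macrophages induce when their lysosomes are loaded with lipid. It lies at chr6:49036546-49070929 on the plus strand, in 13 merged exon blocks (ENSMUSG00000029816). Gpnmb had 530.5, 748 and 644 CPM in Cre libraries 1, 2 and 3, against 462, 447 and 426 CPM in control libraries 1, 2 and 3. Every Cre library lay above every control, and Cre library 1 was the nearest to them. The means were 641 ± 109 CPM in Cre libraries and 445 ± 18.3 CPM in controls, a log2 fold change of 0.53 ± 0.12 (SE) with a 95% interval of 0.26 to 0.80 and an adjusted p of 0.159 by edgeR. The adjusted p was 0.000367 in DESeq2, 0.0143 in edgeR with low counts kept and 0.0139 in edgeR without Cre library 1, against 0.000367 to 0.468 over the alternatives. The MiT/TFE transcription factors, which drive lysosomal genes and Gpnmb, lay close to their control levels: 2 of 4 tested genes had a fitted change above 0, 0 were higher and 0 lower with an unadjusted edgeR p under 0.05, 0 passed over all genes in edgeR, DESeq2 called 0 higher and 0 lower, and the median log2 fold change was -0.018. Tfec, the most abundant of them, had 168, 197 and 173 CPM in the Cre libraries, against 177, 150.1 and 163 CPM in controls. Tfeb had 98.6, 108 and 97.5 CPM in the Cre libraries, against 109, 102 and 112 CPM in controls. Tfe3 had 71.7, 67.2 and 68.5 CPM in the Cre libraries, against 72.9, 75.2 and 74.9 CPM in controls, with each Cre library below each control and an adjusted p of 0.411 (edgeR).

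Spp1 encodes osteopontin, a secreted matrix protein that binds integrins and CD44. It lies at chr5:104435118-104441050 on the plus strand, in 8 merged exon blocks (ENSMUSG00000029304). Spp1 had 347, 649.8 and 421 CPM in Cre libraries 1, 2 and 3, against 383, 323 and 290.0 CPM in control libraries 1, 2 and 3. Cre libraries 2 and 3 lay above every control, and Cre library 1 lay between control libraries 1 and 2. The means were 472 ± 158 CPM in Cre libraries and 332 ± 47.4 CPM in controls, a log2 fold change of 0.51 ± 0.22 (SE) with a 95% interval of 0.003 to 1.01 and an adjusted p of 0.388 by edgeR. Without Cre library 2 the log2 fold change was 0.21, so much of it came from that library.

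The upstream windows of Trem2, Gpnmb and Spp1 are shown because these markers were higher together in Cre libraries 2 and 3, and because their windows hold no annotated exon. Each is the 250 bases before the gene's start on the plus strand, from RefSeq on GRCm38.p6, which held such windows for 8 of the 9 markers. Capitals mark matches on either strand to GAGGAA (PU.1 core) or TGANTCA (AP-1). The windows are Trem2 at chr17:48346151-48346400, Gpnmb at chr6:49036268-49036517 and the upstream start of Spp1 at chr5:104434861-104435110.
Trem2: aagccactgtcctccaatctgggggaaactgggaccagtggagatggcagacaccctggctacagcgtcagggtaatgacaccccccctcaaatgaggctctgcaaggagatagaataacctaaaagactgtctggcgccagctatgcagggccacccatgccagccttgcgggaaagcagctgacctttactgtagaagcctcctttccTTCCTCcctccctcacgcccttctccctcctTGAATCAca
Gpnmb: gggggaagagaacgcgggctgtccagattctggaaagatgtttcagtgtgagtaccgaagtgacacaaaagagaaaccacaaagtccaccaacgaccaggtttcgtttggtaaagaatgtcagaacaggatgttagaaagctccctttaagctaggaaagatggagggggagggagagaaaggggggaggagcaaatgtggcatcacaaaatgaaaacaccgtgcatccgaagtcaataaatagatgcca
Spp1: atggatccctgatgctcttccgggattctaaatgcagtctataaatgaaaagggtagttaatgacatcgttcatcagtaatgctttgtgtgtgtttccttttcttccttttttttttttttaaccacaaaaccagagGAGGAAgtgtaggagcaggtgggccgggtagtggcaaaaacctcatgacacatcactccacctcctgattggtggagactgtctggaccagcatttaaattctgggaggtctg
The Trem2 window held TTCCTC, which is GAGGAA on the other strand, starting 40 bases before the gene, and TGAATCA starting 9 bases before it. The Spp1 window held GAGGAA starting 113 bases before the gene, and the Gpnmb window held neither. Of 32851 RefSeq windows of this length, 23.3% held GAGGAA and 6.75% held TGANTCA. The letters CACGTG (E-box), TGCTGAC (MAF half-site) and TTGCNNAA (C/EBP), which do not overlap the other motifs in these windows, were searched on both strands too. They were in 6.02%, 3.81% and 9.56% of the windows and in none of these 3 windows. A match is a description of letters and not a binding site.

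Fn1 encodes fibronectin, a matrix glycoprotein that also binds integrins, and lies at chr1:71585520-71653200 on the minus strand, in 45 merged exon blocks (ENSMUSG00000026193). Fn1 had 1884, 2443 and 2517 CPM in Cre libraries 1, 2 and 3, against 2539.9, 2749 and 2564 CPM in control libraries 1, 2 and 3. Every Cre library lay below every control, and Cre library 1 was farthest below, with Cre library 3 almost at the lowest control. The means were 2282 ± 346 CPM in Cre libraries and 2618 ± 115 CPM in controls, a log2 fold change of -0.20 ± 0.11 (SE) with a 95% interval of -0.46 to 0.061 and an adjusted p of 0.527 (edgeR), and it was -0.084 without Cre library 1. The matrix transcripts Spp1 and Fn1 thus lay on opposite sides of their control means. Among their receptors, 5 of 10 tested genes had a fitted change above 0, 3 were higher and 1 lower with an unadjusted edgeR p under 0.05, 0 passed over all genes in edgeR, DESeq2 called 1 higher and 0 lower, and the median log2 fold change was 0.013. Cd44 had 2626, 2586 and 2544 CPM in the Cre libraries, against 2562, 2549 and 2772 CPM in controls. Itgb1 had 796, 783 and 761 CPM in the Cre libraries, against 769, 733 and 759.9 CPM in controls. These 2 were the most abundant receptors of the list, and their genotypes overlapped. Of the smallest p, the heparan sulfate proteoglycan Sdc4 had 2.52, 7.22 and 8.71 CPM in the Cre libraries, against 1.16, 0.981 and 0.95 CPM in controls, with an adjusted p of 0.146 (edgeR). The integrin chain gene Itga9, which pairs with Itgb1, had 0.727, 0.899 and 1.04 CPM in the Cre libraries, against 0.415, 0.382 and 0.546 CPM in controls.

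Igf1 encodes a secreted growth factor that macrophages supply to neighbouring cells, and it showed the largest fitted change of the 9. It lies at chr10:87858265-87937042 on the plus strand, in 8 merged exon blocks (ENSMUSG00000020053). Igf1 had 27.1, 88.6 and 80.2 CPM in Cre libraries 1, 2 and 3, against 23.4, 18.1 and 10 CPM in control libraries 1, 2 and 3. Every Cre library lay above every control, with Cre library 1 just above control library 1 and Cre libraries 2 and 3 well above. The means were 65.3 ± 33.3 CPM in Cre libraries and 17.2 ± 6.75 CPM in controls, or 3.80 times the control mean, and the log2 fold change was 1.93 ± 0.46 (SE) with a 95% interval of 0.87 to 2.98 and an adjusted p of 0.17 (edgeR). The adjusted p was 0.0354 in DESeq2, 0.00602 in edgeR without a filter and 0.0127 in edgeR without Cre library 1, against 0.00602 to 0.468 over the alternatives. The libraries of 1 genotype differed too: the coefficient of variation was 51.1% in Cre libraries and 39.3% in controls.

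Of the rest of the insulin-like growth factor axis, 9 of 11 tested genes had a fitted change above 0, 3 were higher and 0 lower with an unadjusted edgeR p under 0.05, 0 passed over all genes in edgeR, DESeq2 called 2 higher and 0 lower, and the median log2 fold change was 0.27. Of all tested genes 49.4% had a fitted change above 0, and 6.54% were higher and 6.28% lower at that p. DESeq2 called 3.88% of the genes it tested. Insr, the insulin receptor, had 142, 125 and 144 CPM in the Cre libraries, against 119, 144 and 126 CPM in controls. Irs2, an adaptor of that receptor, had 142, 123 and 166 CPM in the Cre libraries, against 133, 148 and 143 CPM in controls. The genotypes overlapped for both. Igf2r, the mannose 6-phosphate receptor that carries IGF2 and lysosomal enzymes, had 3.99, 21.1 and 23.9 CPM in the Cre libraries, against 1.68, 1.5 and 1.14 CPM in controls. On the log2 scale Igf2r differed by 3.50 ± 0.61 (SE), with an adjusted p of 0.146 in edgeR and 0.000233 in DESeq2. Igfbp6, which binds insulin-like growth factors, had 0.456, 1.16 and 4.07 CPM in the Cre libraries, against 0.398, 0.333 and 0.299 CPM in controls. For both genes each Cre library lay above each control.

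**Figure D3:**
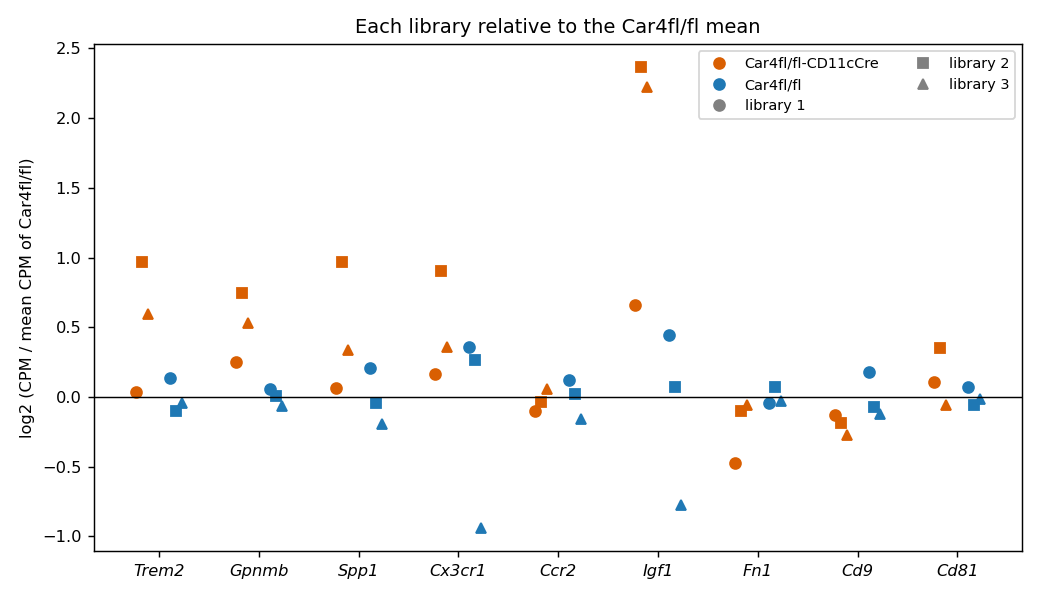
Log2 of each library's CPM over the Car4fl/fl mean for the 9 markers, Car4fl/fl-CD11cCre left of Car4fl/fl, with a symbol for each library number. Cre libraries 2 and 3 lie above 0.3 for Trem2, Gpnmb, Spp1, Cx3cr1 and Igf1, and the Ccr2 points of both genotypes lie close to 0.

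Ccr2 encodes the receptor of monocyte chemoattractant proteins and is the marker most closely tied to circulating monocytes. It lies at chr9:124101950-124113557 on the plus strand, in 3 merged exon blocks (ENSMUSG00000049103). Ccr2 had 14, 14.6 and 15.6 CPM in Cre libraries 1, 2 and 3, against 16.3, 15.2 and 13.4 CPM in control libraries 1, 2 and 3. All Cre values lay within the range of the controls. The means were 14.7 ± 0.819 CPM in Cre libraries and 15 ± 1.45 CPM in controls, and on the log2 scale the difference was -0.026 ± 0.092 (SE), with a 95% interval of -0.24 to 0.19 and an adjusted p of 0.942 (edgeR).

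Cx3cr1, the fractalkine receptor of patrolling monocytes and tissue macrophages, lies at chr9:119901616-120069879 on the minus strand, in 4 merged exon blocks (ENSMUSG00000052336), and had between 30 and 122 counts per library. Cx3cr1 had 1.13, 1.89 and 1.3 CPM in Cre libraries 1, 2 and 3, against 1.29, 1.21 and 0.528 CPM in control libraries 1, 2 and 3. The exact Poisson 95% interval, which covers counting error only, was 1.57 to 2.26 CPM for the highest, Cre library 2, and 0.356 to 0.754 CPM for the lowest, control library 3. Cre library 2 was the highest and control library 3 the lowest, while the other 4 libraries lay together. The log2 fold change was 0.51 ± 0.36 (SE), with a 95% interval of -0.33 to 1.35 and an adjusted p of 0.632 (edgeR). Without control library 3 it was 0.20 and without Cre library 2 it was 0.26.

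The ligands and other receptors of this chemokine system, listed together with the protease gene Adam8, lay on both sides of their control levels. Of this list 6 of 9 tested genes had a fitted change above 0, 2 were higher (Adam8 and the receptor gene Ccrl2) and 1 lower (Cx3cl1) with an unadjusted edgeR p under 0.05, 0 passed over all genes in edgeR, DESeq2 called 0 higher and 1 lower, and the median log2 fold change was 0.086. Cxcr4 had 222, 205 and 266 CPM in the Cre libraries, against 186, 181 and 286 CPM in controls. Ccr1 had 152, 161 and 158 CPM in the Cre libraries, against 184, 170.2 and 155 CPM in controls. These 2 were the most abundant receptors, and their genotypes overlapped. Cx3cl1, the membrane-bound ligand of CX3CR1, had 68.3, 61.2 and 65.4 CPM in the Cre libraries, against 73.2, 76.1 and 85.7 CPM in controls, each Cre library below each control, with an adjusted p of 0.191 (edgeR). Adam8, a surface protease of leukocytes, had 3.21, 6.85 and 37.9 CPM in the Cre libraries, against 1.43, 2.16 and 2.36 CPM in controls, where Cre library 3 set most of the difference. The 4 monocyte chemoattractant genes of the list, named after their values were seen, were low in level. Ccl2 had 2.15, 1.78 and 4.44 CPM in the Cre libraries, against 3.42, 4.36 and 2.59 CPM in controls. Ccl7 had 0.135, 0.17 and 0.353 CPM in the Cre libraries, against 0.232, 0.283 and 0.123 CPM in controls. Ccl12 had 0.135, 0.186 and 0.186 CPM in the Cre libraries, against 0.149, 0.233 and 0.0704 CPM in controls. These 3 overlapped between genotypes. Ccl8, which was below the filter on low counts and not tested, had 0.152, 1.18 and 2.21 CPM in the Cre libraries, against 0.0166, 0 and 0.0176 CPM in controls, each Cre library above each control.

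The 2 tetraspanin markers lay on opposite sides of their control means. Cd9 lies at chr6:125460266-125494791 on the minus strand, in 10 merged exon blocks (ENSMUSG00000030342), and had 3141, 3019 and 2833 CPM in Cre libraries 1, 2 and 3, against 3877, 3254 and 3153 CPM in control libraries 1, 2 and 3. Every Cre library lay below every control, by a small margin between Cre library 1 and control library 3. The log2 fold change was -0.19 ± 0.094 (SE), with a 95% interval of -0.41 to 0.024 and an adjusted p of 0.448 (edgeR), and it was -0.10 without control library 1. Cd81 lies at chr7:143052739-143067934 on the plus strand, in 9 merged exon blocks (ENSMUSG00000037706), and had 189, 224 and 168 CPM in Cre libraries 1, 2 and 3, against 184, 169 and 173 CPM in control libraries 1, 2 and 3. Its groups overlapped, with Cre library 2 the highest of all and Cre library 3 the lowest. The log2 fold change of Cd81 was 0.14 ± 0.10 (SE), with a 95% interval of -0.09 to 0.38 and an adjusted p of 0.63 (edgeR), and it was 0.025 without Cre library 2.

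Of the other tetraspanins and their partners, 14 of 22 tested genes had a fitted change above 0, 4 were higher and 1 lower with an unadjusted edgeR p under 0.05, 0 passed over all genes in edgeR, DESeq2 called 2 higher and 0 lower, and the median log2 fold change was 0.053. The leukocyte tetraspanin Cd53 had 523, 563 and 546 CPM in the Cre libraries, against 593, 526 and 512 CPM in controls. Ptgfrn, an immunoglobulin-domain partner of CD9 and CD81, had 353, 344 and 325 CPM in the Cre libraries, against 384, 378 and 335 CPM in controls. The genotypes overlapped for both. The 2 of smallest p were Tspan32 and Tspan3. Tspan32 had 59.8, 67.7 and 57.9 CPM in the Cre libraries, against 39.6, 36.6 and 51 CPM in controls. Tspan3 had 4.97, 11.5 and 7.24 CPM in the Cre libraries, against 3.22, 3.39 and 4.17 CPM in controls. For these 2 genes every Cre library lay above every control, with adjusted p of 0.161 and 0.181 (edgeR).

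**Figure D4:**
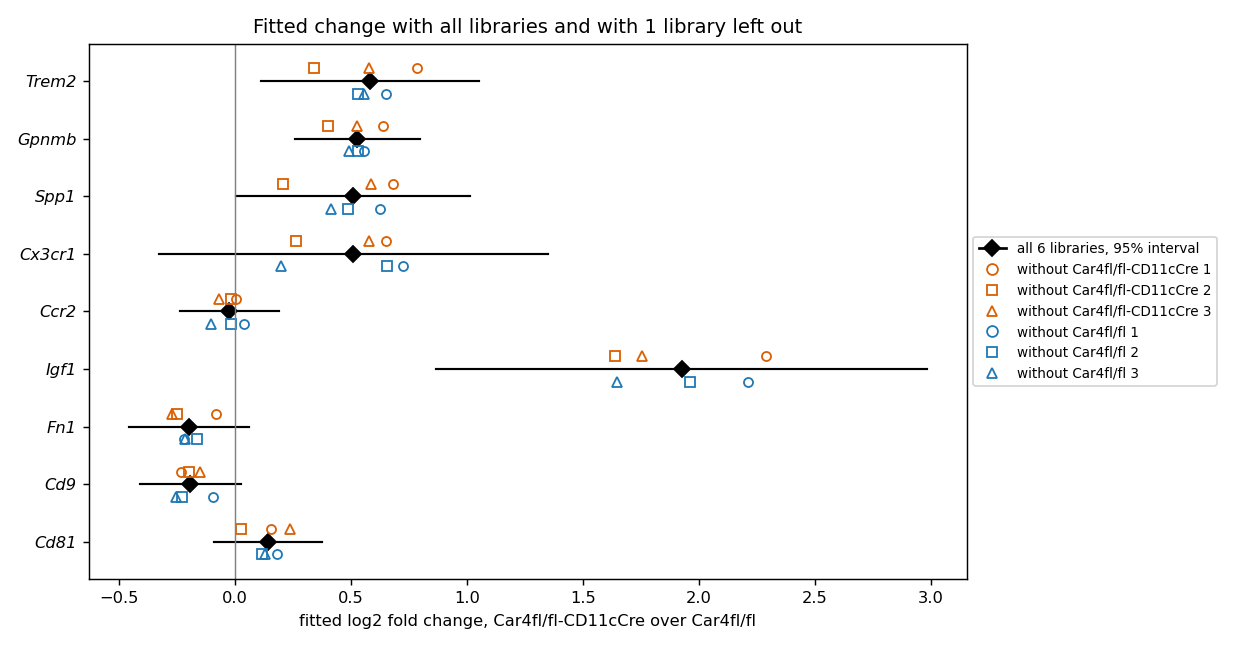
Fitted log2 fold change of each marker (edgeR, Car4fl/fl-CD11cCre over Car4fl/fl) with all 6 libraries as a diamond with its 95% interval, and with 1 library left out as open symbols. Leaving out Cre library 2 lowers Spp1 to 0.21, leaving out Cre library 1 raises Igf1 to 2.29, and Igf1, Gpnmb, Trem2, Spp1, Cx3cr1 and Cd81 stay above 0 in each case shown.

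Cre library 2 was the highest library for 6 of 9, against 21.2% of all tested genes, and control library 3 the lowest for 5 of 9, against 13.6%. Over the 9 markers the median log2 ratio to the control mean was 0.062 in Cre library 1, 0.75 in Cre library 2 and 0.34 in Cre library 3. The highest library exceeded the lowest 8.85 times for Igf1, 3.58 times for Cx3cr1, 2.24 times for Spp1 and 2.09 times for Trem2. For the other 5 that ratio was 1.21 to 1.76.

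For the 4 markers with at least a doubling between libraries, the genes with the closest profile were found by the root mean square difference of centred log2 CPM over the 6 libraries. For Trem2 these were Adhfe1, an alcohol dehydrogenase of mitochondria (0.067), the fatty acid binding gene Fabp5 (0.068) and the lysosomal protease gene Lgmn (0.086). Fabp5 had 171, 307 and 229 CPM in the Cre libraries, against 160.3, 149 and 142 CPM in controls. For Spp1 they were Mreg (0.089), the tartrate-resistant phosphatase gene Acp5 (0.10) and Cd200 (0.11). Acp5 had 202, 409 and 274 CPM in the Cre libraries, against 239, 201 and 213 CPM in controls. For Igf1 they were the urea cycle enzyme gene Ass1 (0.20), the export pump gene Abcc3 (0.22) and the chemokine gene Cxcl16 (0.28). Cxcl16 had 3.7, 15.2 and 12.5 CPM in the Cre libraries, against 4.73, 3.97 and 2.34 CPM in controls. For Cx3cr1 they were Ahnak2, Akr1b8 and Nlrc5, at 0.11, 0.20 and 0.20. These distances describe 6 libraries that share their genotype split.

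Other markers of the same macrophage types, none of them among the 9, were read beside them. These lists too were chosen with earlier results of these data known, so their counts are no independent support for the 9. Among interstitial macrophage markers 17 of 21 tested genes had a fitted change above 0, 11 were higher and 1 lower with an unadjusted edgeR p under 0.05, 0 passed over all genes in edgeR, DESeq2 called 7 higher and 1 lower, and the median log2 fold change was 0.91. Of all tested genes 3.88% were called by DESeq2, and 6.54% were higher and 6.28% lower at that p. The complement genes C1qa and C1qc had the smallest p there. C1qa had 1.88, 12.4 and 18.2 CPM in the Cre libraries, against 0.681, 1.01 and 0.722 CPM in controls. C1qc had 1.47, 7.03 and 14.1 CPM in the Cre libraries, against 0.614, 0.698 and 0.774 CPM in controls. Their adjusted p were 0.146 and 0.153 (edgeR), and Cre library 1 was again nearest to the controls. The efferocytosis receptor Mertk and the complement receptor C5ar1 were the most abundant. Mertk had 678, 741 and 718 CPM in the Cre libraries, against 649.7, 679 and 735 CPM in controls. C5ar1 had 512, 413 and 498 CPM in the Cre libraries, against 439, 467 and 568 CPM in controls. Their genotypes overlapped. Among lipid-associated macrophage markers 14 of 21 tested genes had a fitted change above 0, 7 were higher and 1 lower with an unadjusted edgeR p under 0.05, 0 passed over all genes in edgeR, DESeq2 called 3 higher and 0 lower, and the median log2 fold change was 0.16. Of these, Syngr1 had 2.43, 18.5 and 5.0 CPM in the Cre libraries, against 0.498, 0.399 and 0.422 CPM in controls, and Rai14 had 1.47, 21.2 and 10.7 CPM in the Cre libraries, against 0.631, 0.333 and 0.757 CPM in controls, both highest in Cre library 2. The cathepsin gene Ctsd and the lipase gene Lpl were the most abundant, and both overlapped. Ctsd had 8356, 11266 and 8716 CPM in the Cre libraries, against 8619, 7547 and 8191 CPM in controls. Lpl had 3181, 3025 and 2758 CPM in the Cre libraries, against 4632, 4024 and 2969.5 CPM in controls. Among markers of monocyte-derived alveolar macrophages 13 of 18 tested genes had a fitted change above 0, 10 were higher and 0 lower with an unadjusted edgeR p under 0.05, 0 passed over all genes in edgeR, DESeq2 called 8 higher and 0 lower, and the median log2 fold change was 0.49. Itgam, the CD11b chain, had 16.8, 31.5 and 31 CPM in the Cre libraries, against 6.16, 6.4 and 3.7 CPM in controls, with an adjusted p of 0.116 in edgeR and 5.97e-07 in DESeq2, and the arginase gene Arg1 had 8.16, 72.2 and 192 CPM in the Cre libraries, against 0.481, 0.948 and 1.6 CPM in controls. Both were lowest among the Cre libraries in library 1. The protease gene Ctss and the matrix gene Tgfbi were the most abundant. Ctss had 3382, 3944 and 3587 CPM in the Cre libraries, against 4104, 3484 and 3568 CPM in controls. Tgfbi had 873, 782 and 779 CPM in the Cre libraries, against 1012, 875 and 873 CPM in controls. Ctss overlapped between genotypes, and the highest Cre value of Tgfbi equalled the lowest control value to 3 significant digits. The summed level was 2010.0 to 2574 CPM in Cre libraries and 1962 to 2105 CPM in controls for the interstitial list, 24998 to 29679.8 CPM in Cre libraries and 24395 to 28109 CPM in controls for the lipid-associated list, and 5717 to 6774 CPM in Cre libraries and 5748 to 6625 CPM in controls for the monocyte-derived list.

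Alveolar macrophage markers were high in both genotypes, with a summed level of 39975 to 52968 CPM in Cre libraries and 34807 to 37276 CPM in controls. Chil3 was the most abundant gene of the list. For that list 6 of 20 tested genes had a fitted change above 0, 4 were higher and 7 lower with an unadjusted edgeR p under 0.05, 0 passed over all genes in edgeR, DESeq2 called 4 higher and 3 lower, and the median log2 fold change was -0.15. Lpl and Fabp4 are in the lipid-associated list too, so Lpl is counted as lower in both. The scavenger receptor Marco and the CD11c gene Itgax had the smallest p of the alveolar list. Marco had 469, 505 and 393 CPM in the Cre libraries, against 311, 296 and 280.1 CPM in controls. Itgax had 2386, 2578 and 2349.7 CPM in the Cre libraries, against 1869, 1725 and 1484 CPM in controls. For both every Cre library lay above every control, with adjusted p of 0.146 and 0.146 in edgeR and 8.7e-08 and 2.89e-06 in DESeq2. Over the list the genotypes did not overlap for 5 genes that were higher and 5 that were lower. Of all tested genes 8.63% and 9.22% did so. Lower members, named after their values were seen, were the surface lectin Siglecf, Cd2 and Krt19. Siglecf had 592, 464 and 585 CPM in the Cre libraries, against 752, 663 and 708 CPM in controls. Cd2 had 289, 226 and 289 CPM in the Cre libraries, against 402, 349 and 355 CPM in controls. Krt19 had 657, 466 and 518 CPM in the Cre libraries, against 756, 696 and 694 CPM in controls. For these 3 every Cre library lay below every control, with adjusted p of 0.197, 0.161 and 0.251 in edgeR and 0.0124, 0.00177 and 0.0302 in DESeq2.

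Classical monocyte markers summed to 254 to 297 CPM in Cre libraries and 235 to 274 CPM in controls, most of it Mgst1, which had 228, 261 and 225 CPM in the Cre libraries, against 245, 226 and 212 CPM in controls. The next most abundant apart from Ccr2 was Hp, which had 3.31, 13.4 and 4.61 CPM in the Cre libraries, against 2.76, 2.93 and 2.06 CPM in controls. The defining monocyte genes Ly6c2, Plac8 and Vcan were named after their values were seen. Ly6c2 had 0.355, 0.465 and 0.836 CPM in the Cre libraries, against 0.0996, 0.382 and 0.37 CPM in controls. Plac8 had 0.98, 0.976 and 0.947 CPM in the Cre libraries, against 0.979, 1.15 and 0.739 CPM in controls. Vcan had 1.83, 1.21 and 1.36 CPM in the Cre libraries, against 2.99, 4.27 and 2.39 CPM in controls. Ly6c2 and Plac8 overlapped between genotypes. Vcan, the gene of smallest p in the list, lay below every control in each Cre library, with an adjusted p of 0.161 in edgeR and 0.00462 in DESeq2. Of this list, which holds Ccr2, 7 of 10 tested genes had a fitted change above 0, 1 were higher and 1 lower with an unadjusted edgeR p under 0.05, 0 passed over all genes in edgeR, DESeq2 called 0 higher and 1 lower, and the median log2 fold change was 0.085. Non-classical monocyte markers summed to 605 to 714 CPM in Cre libraries and 733 to 859 CPM in controls, led by Nr4a1 and Spn. Nr4a1 had 505, 412 and 483 CPM in the Cre libraries, against 520.0, 610.1 and 657 CPM in controls. Spn had 78.7, 69.8 and 70.7 CPM in the Cre libraries, against 81.3, 75 and 76.9 CPM in controls. Of these, with Cx3cr1 among them, 3 of 10 tested genes had a fitted change above 0, 1 were higher and 1 lower with an unadjusted edgeR p under 0.05, 0 passed over all genes in edgeR, DESeq2 called 0 higher and 1 lower, and the median log2 fold change was -0.08.

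Fibroblasts and mesothelium, which also make Fn1 and Igf1, had summed markers of 12.1 to 27.7 CPM in Cre libraries and 13.2 to 28.2 CPM in controls, with a fitted change above 0 for 6 of 9 tested genes. Over all tested genes 49.4% had a fitted change above 0. Col3a1 had 7.62, 3.33 and 7.1 CPM in the Cre libraries, against 2.81, 3.69 and 8.85 CPM in controls. Col1a1 had 6.36, 1.6 and 5.09 CPM in the Cre libraries, against 2.26, 2.73 and 6.93 CPM in controls. The sum of these markers was lowest in Cre library 2 and highest in control library 3. What these cells gave to Igf1 or Fn1 was not tested. Dendritic cell markers summed to 124 to 164 CPM in Cre libraries and 139 to 158 CPM in controls (7 of 11 above 0), led by Cd24a and Batf3. Cd24a had 109, 142 and 97.8 CPM in the Cre libraries, against 130.4, 116 and 120.4 CPM in controls. Batf3 had 10.2, 12.9 and 12.8 CPM in the Cre libraries, against 16, 11.6 and 8.98 CPM in controls. The genotypes overlapped for both. Clec9a, named after its values were seen, had the smallest p of the dendritic list and was lower. Clec9a had 2.32, 2.88 and 3.42 CPM in the Cre libraries, against 5.63, 5.92 and 3.63 CPM in controls. Each Cre library lay below each control, with an adjusted p of 0.1997 in edgeR and 0.0219 in DESeq2. No other gene of that list passed in DESeq2. Neutrophil markers summed to 102 to 111 CPM in Cre libraries and 86.1 to 95.6 CPM in controls (7 of 7 above 0), led by Csf3r and Mmp8. Csf3r had 57, 38.8 and 50.9 CPM in the Cre libraries, against 39.1, 43.7 and 44.6 CPM in controls. Mmp8 had 39.8, 35.7 and 37.3 CPM in the Cre libraries, against 43, 30.9 and 27.3 CPM in controls. Ly6g had 0 counts in all libraries.

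Lung epithelium markers summed to 239 to 304 CPM in Cre libraries and 268 to 353 CPM in controls (9 of 12 above 0), led by Cdh1 and Epcam. The share above 0 over all tested genes was 49.4%. Cdh1 had 133, 140.4 and 156 CPM in the Cre libraries, against 105, 106 and 118 CPM in controls. Epcam had 35.4, 16 and 22.6 CPM in the Cre libraries, against 156, 129 and 55.1 CPM in controls. For Epcam every Cre library lay below every control, and for Cdh1 every Cre library lay above every control. Over this list the genotypes did not overlap for 1 gene that was higher and 2 that were lower. Sftpc, named after its values were seen, had 75.4, 40.4 and 46.9 CPM in the Cre libraries, against 44.6, 38.7 and 46.9 CPM in controls. Sftpc, Sftpb and Sftpa1 overlapped between genotypes. Which cells gave the Cdh1 and Epcam transcripts was not tested. Endothelial markers summed to 213 to 251 CPM in Cre libraries and 182 to 203 CPM in controls (8 of 10 above 0), led by Vwf and Calcrl. Vwf had 152, 179 and 153 CPM in the Cre libraries, against 131, 136 and 117 CPM in controls. Calcrl had 54.7, 55.8 and 43.4 CPM in the Cre libraries, against 48.6, 47.3 and 46.4 CPM in controls. Lymphocyte markers summed to 9.86 to 14.3 CPM in Cre libraries and 8.08 to 9.84 CPM in controls (8 of 10 above 0), led by Cd79a. Cd79a had 2.2, 2.8 and 3.86 CPM in the Cre libraries, against 2.92, 1.95 and 2.97 CPM in controls. For alveolar macrophages, endothelium, neutrophils and lymphocytes each Cre sum lay above each control sum, and for non-classical monocytes each lay below. Sums without the most abundant gene of each list, taken after the values were seen, overlapped for 4 of the 5 lists. They were 20007 to 21231 CPM in Cre libraries and 19442 to 22245 CPM in controls for alveolar macrophages without Chil3, and 60.1 to 86.1 CPM in Cre libraries and 65 to 67.6 CPM in controls for endothelium without Vwf. They were 53.6 to 62.7 CPM in Cre libraries and 41.5 to 56.4 CPM in controls for neutrophils without Csf3r, and 192 to 209.7 CPM in Cre libraries and 202 to 213 CPM in controls for non-classical monocytes without Nr4a1. For lymphocytes without Cd79a they were 7.66 to 10.4 CPM in Cre libraries and 6.14 to 6.92 CPM in controls, which did not overlap. Of the genes left out, Csf3r and Cd79a themselves overlapped between genotypes, while Chil3, Vwf and Nr4a1 did not. An overlap without a gene therefore does not show that this gene made the separation. The part of these cells in the values of the 9 markers was not tested.

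**Figure D5:**
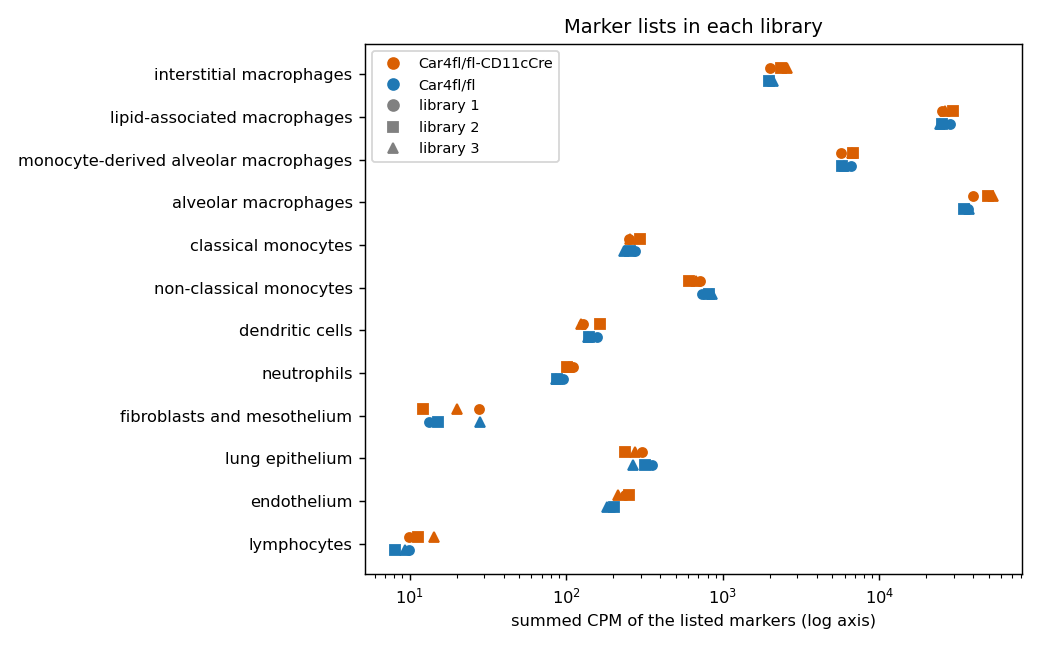
Summed CPM of each marker list in each library on a log axis, Car4fl/fl-CD11cCre drawn above Car4fl/fl within a list, with a symbol for each library number. Alveolar macrophage markers lie near the top of the scale in both genotypes, and fibroblast and lymphocyte markers at the bottom, between 8.08 and 28.2 CPM.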

How the data were processed

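The authors deposited raw read counts for each gene. Tools listed in the submitters' processing notes include STAR 2.6.1 and featureCounts 1.6.4, with the build GRCm38. Neither annotation release nor strand setting is given in the sources used here, so reads of exons shared with neighbours cannot be told apart: Spp1 309, Fn1 292, Cd9 218, Cd81 104 and Cx3cr1 78 bases. Libraries were assigned to mice by the library names in the labels. The test was edgeR 4.0.16 under R 4.3.3 (filterByExpr with a minimum count of 10, TMM, glmQLFit and glmQLFTest, two-sided, Benjamini-Hochberg over 15147 genes, threshold 0.05, no covariate or block). Standard errors are the absolute log2 fold change over the square root of F, and 95% intervals of fold changes use the t distribution. Where a symbol had several rows, the row with most counts was used. Exon lengths and positions are from GENCODE M21. Poisson intervals and floors cover counting error only, and a floor of 3 counts was 0.0465 to 0.0557 CPM. Chi-square per degree of freedom between libraries of a genotype was 21.9 to 57.5, so none was a repeat deposit. The 9 members and 18 gene lists were chosen with earlier results of these data known, and 2 of 249 listed genes had no row under their symbol. From each list the genes named are the 2 most abundant and, for pathway and macrophage lists, the 2 of smallest p, of which 1 gene is not reported here. For each marker whose highest library lay at least 1 log2 unit above its lowest, the 3 genes of closest profile with a mean of at least 1 CPM are named. As alternatives, scaling by RLE, upper quartile or library size alone was tried, then DESeq2 1.42.0, limma-voom (limma 3.58.1), no filter, 5 CPM in 3 libraries, robust and newer dispersion settings, the replicate number as a block, and leaving out each library. The fit was tested on simulated data. Figures used matplotlib 3.10.9.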

Additional observations from a re-analysis of the deposited data

How the results depend on the processing

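Over 16 alternatives, the direction of Trem2, Gpnmb, Spp1, Cx3cr1, Igf1, Fn1, Cd9 and Cd81 stayed the same wherever they were fitted. Cx3cr1 has no value with the filter of 5 CPM in 3 libraries, which removed it. Spp1, Cx3cr1, Ccr2, Fn1, Cd9 and Cd81 passed the threshold under none of them. Gpnmb and Igf1 passed with DESeq2 (log2 fold changes 0.53 and 1.93) and in edgeR without a filter (0.53 and 1.92). Leaving out 1 library gave log2 fold changes of 0.34 to 0.79 for Trem2, 0.40 to 0.64 for Gpnmb, 0.21 to 0.68 for Spp1 and 1.64 to 2.29 for Igf1, with Trem2, Gpnmb and Igf1 past the threshold only without Cre library 1. For Ccr2 the range was -0.10 to 0.039, with the sign turned without Cre library 1 (0.0033) and without control library 1 (0.039). Over all genes edgeR called 1 higher and 1 lower, DESeq2 345 and 219, and edgeR without a filter 340 and 183. Robust dispersions left 0 lower. Leaving out 1 library gave 1 to 249 higher and 0 to 52 lower. The cause was not tested. Same-numbered libraries did not deviate together (r of -0.0098, -0.16 and 0.069), so the numbers were not treated as pairs. With the replicate number as a block edgeR called 8 higher and 2 lower and none of the 9 markers, and 1 of 6 libraries correlated best with its own number. Depth limits genes near the floor of 3 counts, such as Ccl8 in controls.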
